A study of Mus musculus with 6 samples.

Results

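Interferon-stimulated genes, the antiviral genes that cells switch on in answer to interferons, were followed in cultured mouse prostate stromal cells as a list of 32 named genes. The members were chosen by name and not by a threshold on their values, but with earlier results of these data known. All 32 genes were among the 24346 gene symbols in the data. RNA was sequenced from 3 libraries of stromal cells carrying the S37A form of β-catenin in the lentiviral vector FU-CGW and from 3 libraries of stromal cells carrying that vector, labelled Vec. All cells were grown from C57BL/6 prostates of mice aged 8 to 12 weeks, on collagen in medium with dihydrotestosterone, and used within 3 weeks of dissociation. Per the labels' protocols, unattached cells were discarded 30 min after replating. Both groups had received lentivirus, and no cells without virus were analysed here. Neither the promoter driving the β-catenin insert nor the origin of the replicates (1 culture or several, 1 mouse or several) is given in the sources used here, so p-values measure the spread between these libraries, which may be technical. The protocols name infection of dissociated prostate cells and of the line UGSM, while the sample labels say prostate stroma cells.

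In S37A β-catenin a serine that the destruction complex would phosphorylate is an alanine, so the protein escapes degradation and acts on Wnt target genes. In the interferon response, type I interferons bind the receptor formed by Ifnar1 and Ifnar2, the kinases Jak1 and Tyk2 become active and phosphorylate factors such as Stat2, and Stat2 joins Irf9 in a complex that binds the interferon-stimulated response element in promoters. Among the induced genes are RNA sensors and Irf7, which can raise interferon production again, and Usp18, which shuts the receptor down. Fibroblasts and other stromal cells keep a low basal level of this programme and raise it when they sense viral nucleic acid.

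The unit is FPKM, a density of sequenced fragments scaled to transcript length and library size, and the values of the transcript models of a gene were added up. The widths of the deposited confidence intervals, with the full model length, corresponded to 39.5 to 45.5 M fragments in the S37A libraries and 44.9 to 49.5 M in the vector libraries. Ctnnb1, the β-catenin gene, stood at 132, 144 and 146 FPKM in S37A, against 116, 99.1 and 116 FPKM in vector (limma adjusted p = 0.0158), and Axin2, a direct Wnt target, at 3.29, 2.74 and 2.82 FPKM in S37A, against 0.169, 0.0922 and 0.132 FPKM in vector (adjusted p = 3.85e-05). The 10 stromal markers summed to 11510 to 11600 FPKM in S37A, against 10040 to 10400 FPKM in vector. They were not level between the groups: Acta2, Tagln, Myh11 and Des, genes of contractile cells, were higher in S37A (adjusted p = 0.0267, 0.0276, 0.0489 and 0.00668), Pdgfra, a fibroblast receptor, was lower (0.0132), and the other 5, Vim and the collagens among them, were not called. The part of these stromal shifts in the differences of the members was not tested. Across the 12022 genes that entered the test, S37A was higher for 729 and lower for 2393, a split that became 1265 and 945 with median-ratio scaling of the libraries and 1094 and 957 with quantile normalization.

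The members were expressed in all 6 libraries. Of the 32 members, 31 reached the mean of 0.5 FPKM required for testing, and 3 of them exceeded 100 FPKM, 14 lay between 10 and 100 FPKM and 14 between 1 and 10 FPKM. Bst2, also called tetherin, which holds budding virus particles at the cell surface, was the most abundant at a mean of 436 FPKM, followed by Ifi27l2a at 150.4 FPKM and Isg15 at 132 FPKM. The untested member was Mx1, at 0.106, 0.0590 and 0.116 FPKM in S37A, against 0.329, 0.174 and 0.0878 FPKM in vector; C57BL/6 mice carry a disrupted copy of this GTPase gene. The inferred fragments behind a tested member ran from 84.0 for Mx2 in vector replicate 3 to 16560 for Bst2 in vector replicate 1, so counting error is largest for the low members.

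Vector replicate 3 had low values of this gene set. It was the lowest of the 6 libraries for 27 of the 31 tested members (87.1%), a position it held for 7.22% of all genes tested. S37A replicate 2 was the highest of the 6 libraries for 19 of 31 members (61.3%), against 12.3% of all genes tested, and vector replicate 1 was the highest vector library for 23 of 31. The members varied more within groups than genes at large: their median SD on the log2(FPKM + 1) scale was 0.106 in S37A and 0.177 in vector, while over all genes tested it was 0.0532 in S37A and 0.0633 in vector. The highest S37A library exceeded the lowest S37A library by more than 1.5-fold for 1 member (2.99% of all genes tested did so), and the highest vector library exceeded the lowest vector library by that much for 7 members (4.12% of all genes tested). The comparison of S37A with vector below is therefore given with and without these libraries.

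**Figure D1:**
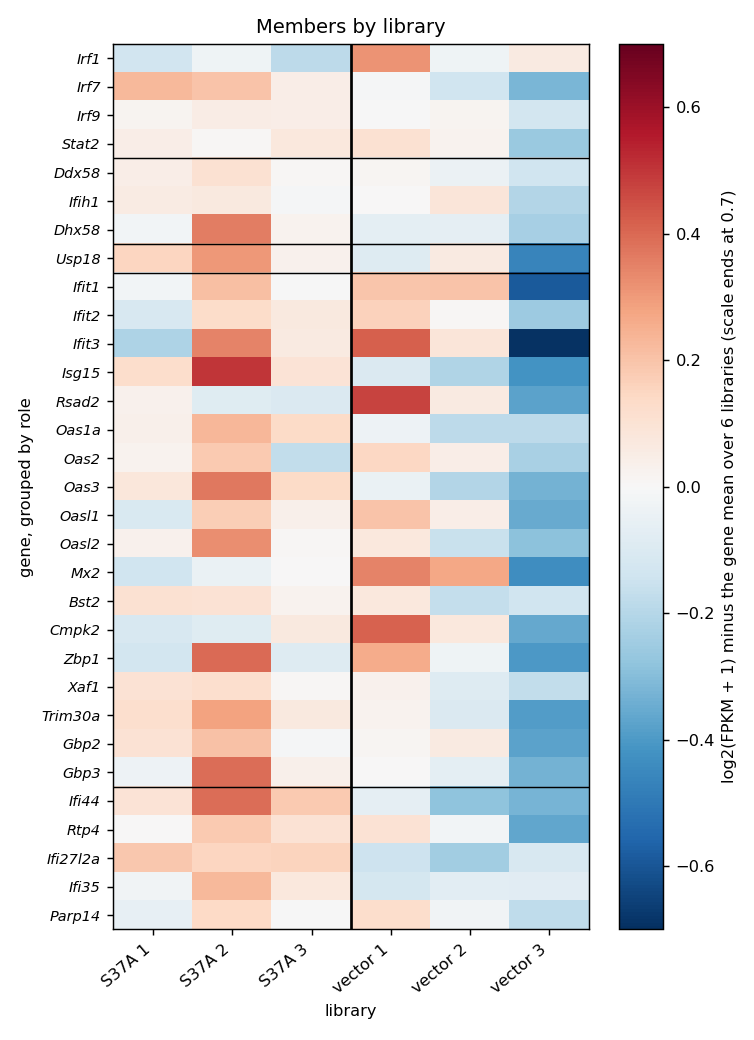
Each row is 1 of the 31 tested members, grouped by role with transcription factors at the top, then sensors, Usp18, antiviral effectors and other genes, and each column is a library; colour is log2(FPKM + 1) minus that gene's mean over the 6 libraries, with the colour scale ending at 0.7 in either direction. The column of vector replicate 3 is blue for nearly every gene, being the lowest of the 6 for 27 of 31, and S37A replicate 2 is mostly red, being the highest for 19 of 31.

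The comparison asks whether the interferon-stimulated genes differ between S37A and vector cells. Isg15, Oas1a, Oas3, Irf7, Ifi44 and Ifi27l2a were higher in S37A, by 1.22-fold to 1.44-fold in mean FPKM, and the other 25 tested members did not pass the test. Thus 6 of 31 (19.4%) rose and 0 fell at a limma adjusted p under 0.05, while 26.0% of all genes tested were called, 6.06% higher and 19.9% lower. Without adjustment, 11 members had a limma p under 0.05 with a positive difference and 1, Irf1, with a negative one, as had 10.3% and 32.4% of all genes tested. The S37A and vector ranges did not overlap for 10 members, all higher in S37A, while 47.8% of all genes tested did not overlap, 11.3% being higher and 36.5% lower. The log2 difference, S37A minus vector on log2(FPKM + 1), was positive for 27 members, with a median of 0.15 over the 31, against a median of -0.07 and 30.5% positive over all genes tested. The count changed in most omissions of 1 library. Without vector replicate 3, vector replicate 2 or S37A replicate 3, 1 member rose, in each case Ifi27l2a, and 2 rose without S37A replicate 2. Without S37A replicate 1, 6 rose (19.4%, against 4.92% of all genes). Without vector replicate 1, 9 rose (29%, against 6.19% of all genes). The share of 1 in 31, 3.23%, lay near that of all genes called higher in the same omissions, 3.76% without vector replicate 3, 3.83% without vector replicate 2 and 2.3% without S37A replicate 3. Without S37A replicate 2 the shares were 6.45% of members and 2.91% of all genes. Without vector replicate 3, 18 of 31 members had a positive difference, the median was 0.06, and Mx2 was called lower. In that omission 31.4% of all genes were positive, with a median of -0.07. With median-ratio scaling 9 members rose (29%, against 10.5% of all genes), and with quantile normalization 7 rose (22.6%, against 9.1%).

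**Figure D2:**
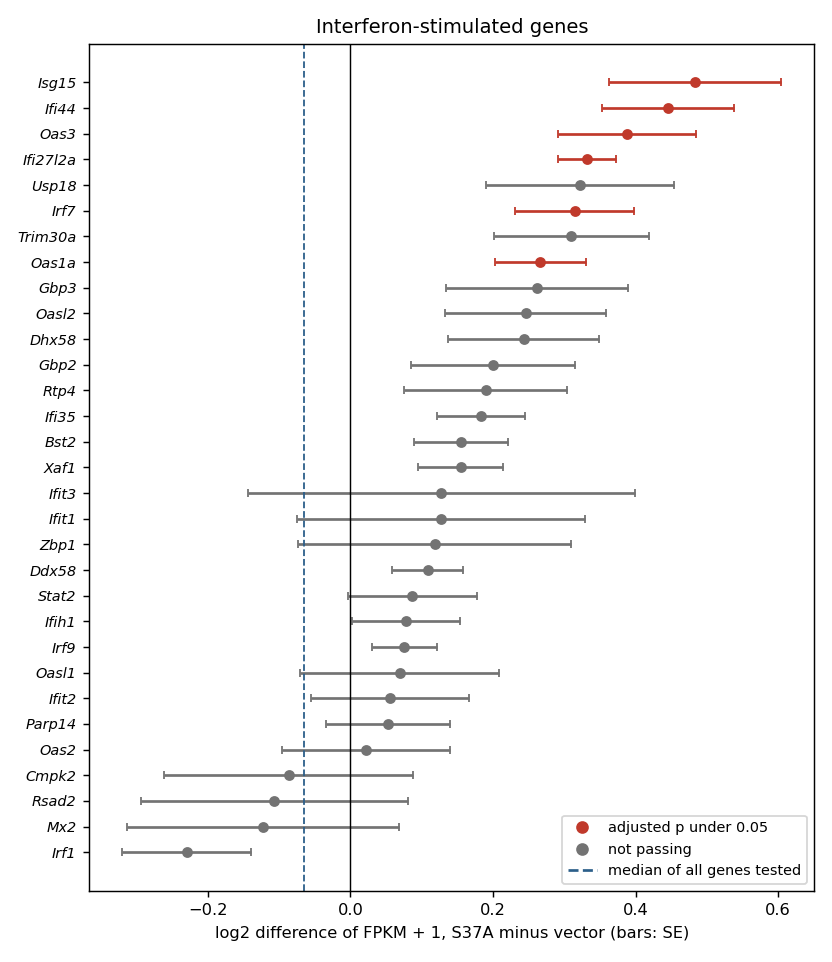
Points are the log2 differences of FPKM + 1, S37A minus vector, of the 31 tested members with bars of 1 SE from limma; red points passed at an adjusted p under 0.05, and the dashed line is the median of all 12022 genes, -0.07. Of the 31 points, 27 lie right of 0, and Ifi27l2a has a short bar while Ifit3, Ifit1, Zbp1 and Mx2 have wide ones.

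Irf7, on chromosome 7 from 141262706 to 141266481 (mm10, minus strand, protein-coding), encodes the transcription factor that amplifies type I interferon genes. It stood at 40.5, 39.8 and 35.7 FPKM in S37A, against 34.3, 31.3 and 27.4 FPKM in vector. Every S37A library lay above every vector library, although S37A replicate 3 was close to vector replicate 1. Irf7 differed by 0.31 on the log2 scale (SE 0.08, limma adjusted p = 0.0333). By exact permutation, two-sided, p was 0.1, which is the lowest value 3 against 3 libraries can reach and holds for each gene below whose groups do not overlap. Its call was lost in 7 of 15 alternatives, among them every omission of 1 library other than vector replicate 1, with adjusted p between 0.0169 and 0.284 over them. The FPKM of Irf7 was split over 3 transcript models: that of 1859 bases had 15.5, 17.0 and 22.6 FPKM in S37A, against 17.0, 15.0 and 14.5 FPKM in vector, and that of 1763 bases had 18.1, 17.5 and 13.0 FPKM in S37A, against 13.5, 12.3 and 9.22 FPKM in vector. The model with the highest mean, that of 1859 bases, did not pass taken alone (adjusted p = 0.284), and how reads were shared among these overlapping models is uncertain.

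The other transcription factors among the members did not pass. Irf9, the DNA-binding partner of Stat2, stood at 18.4, 18.8 and 18.8 FPKM in S37A, against 18.1, 18.4 and 16.5 FPKM in vector (log2 difference 0.08, SE 0.05, adjusted p = 0.243), the groups being separate by a narrow margin. Stat2, which carries the signal from the receptor, stood at 11.2, 10.8 and 11.4 FPKM in S37A, against 11.7, 11.0 and 8.80 FPKM in vector (log2 difference 0.09, adjusted p = 0.489). Its groups overlapped, with vector replicate 3 below the other 5 libraries. Irf1, a factor induced above all by interferon gamma, had the most negative difference of the 31 members: 4.66, 5.08 and 4.46 FPKM in S37A, against 6.70, 5.08 and 5.47 FPKM in vector (log2 difference -0.23, SE 0.09, adjusted p = 0.0958).

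Isg15, on chromosome 4 from 156199424 to 156200818 (minus strand), encodes a ubiquitin-like protein that is attached to other proteins during antiviral defence. It stood at 141, 184 and 139 FPKM in S37A, against 121, 112 and 96.8 FPKM in vector. The groups did not overlap, and S37A replicate 2 lay well above the other S37A libraries. The log2 difference of 0.48 (SE 0.12, adjusted p = 0.0278) was the largest among the members, a ratio of means of 1.41. Without S37A replicate 2 it was 0.35 with an adjusted p of 0.0567, and it was not called either without S37A replicate 3, vector replicate 2 or vector replicate 3, or without a filter on low values (adjusted p = 0.0211 to 0.0811 over 15 alternatives).

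The oligoadenylate synthetases make short adenylate chains that activate RNase L. Of the 5 synthetase genes and relatives on the list, 2 were called higher, as were 6.06% of all genes tested. Oas1a, on chromosome 5 from 120896256 to 120907521, stood at 14.5, 16.8 and 15.7 FPKM in S37A, against 13.8, 12.4 and 12.4 FPKM in vector, without overlap (log2 difference 0.27, SE 0.06, adjusted p = 0.0252). Oas3, on the same chromosome from 120753098 to 120777661, stood at 3.09, 3.99 and 3.25 FPKM in S37A, against 2.74, 2.36 and 2.08 FPKM in vector, again without overlap (log2 difference 0.39, SE 0.10, adjusted p = 0.0278). Both calls were lost with S37A replicate 2, S37A replicate 3, vector replicate 2 or vector replicate 3 left out, at adjusted p up to 0.0791 for Oas1a and 0.0807 for Oas3. Both were also lost with a block for replicate number (0.0676 and 0.0566), and Oas3 without a filter (adjusted p = 0.0623). Oas2, from 120730333 to 120749853 beside them, stood at 3.52, 4.05 and 2.95 FPKM in S37A, against 3.93, 3.59 and 2.81 FPKM in vector (log2 difference 0.02, adjusted p = 0.900). Oasl2 and Oasl1, relatives with ubiquitin-like tails, averaged 17.3 ± 2.33 and 7.10 ± 0.788 FPKM in S37A and 14.5 ± 2.00 and 6.79 ± 1.47 FPKM in vector (adjusted p = 0.140 and 0.728). Oas1g, a close copy of Oas1a that was not on the list, stood at 4.24, 4.96 and 4.59 FPKM in S37A, against 3.94, 3.58 and 3.56 FPKM in vector (log2 difference 0.25, adjusted p = 0.0267), and the sharing of reads between these copies is uncertain.

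The promoters of the risen members that hold the core of the interferon-stimulated response element are shown because this element is the site through which the complex with Stat2 and Irf9 acts. The core was searched as GAAA, any 2 bases and GAAA again, on both strands (so also as TTTC, any 2 bases and TTTC), copies being allowed to overlap, in RefSeq windows (GRCm38.p6) that run from 250 bases before the start of a gene to 50 bases after it. Capitals mark the copies, and each window is written 5′ to 3′ on the strand of its gene, which is the minus strand for these genes, at chr4:156200769-156201068, chr5:120907476-120907775 and chr5:120777610-120777909.
Isg15: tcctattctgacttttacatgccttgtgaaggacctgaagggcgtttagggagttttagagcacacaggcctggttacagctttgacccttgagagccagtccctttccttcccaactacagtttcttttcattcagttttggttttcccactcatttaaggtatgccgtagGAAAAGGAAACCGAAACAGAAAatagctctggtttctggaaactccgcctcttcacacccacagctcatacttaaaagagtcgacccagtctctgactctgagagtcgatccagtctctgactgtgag
Oas1a: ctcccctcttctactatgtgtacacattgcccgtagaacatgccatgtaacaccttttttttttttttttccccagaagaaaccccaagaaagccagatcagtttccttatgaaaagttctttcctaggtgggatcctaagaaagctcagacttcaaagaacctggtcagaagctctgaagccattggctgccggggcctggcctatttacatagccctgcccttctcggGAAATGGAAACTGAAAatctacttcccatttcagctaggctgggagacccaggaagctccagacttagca
Oas3: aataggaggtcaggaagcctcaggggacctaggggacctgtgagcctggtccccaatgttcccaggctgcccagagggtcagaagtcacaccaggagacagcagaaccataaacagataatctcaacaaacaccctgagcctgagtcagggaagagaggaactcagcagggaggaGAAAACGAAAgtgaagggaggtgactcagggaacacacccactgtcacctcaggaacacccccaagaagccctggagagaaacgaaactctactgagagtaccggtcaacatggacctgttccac
Isg15 held 3 overlapping copies centred 73 to 61 bases before the start, Oas1a held 2 overlapping copies centred 15 and 9 bases before it, and Oas3 held 1 copy centred 70 bases before it.

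A window was found for 23 of the 32 members, and 13 of these (56.5%) held the core, as did 3.44% of all 32851 windows and 3.99% of all 27025 genes with a window. The interferon gamma-activated site was searched as TTCNNNGAA, which reads alike on both strands. It was in the windows of 5 of the 23 members (21.7%), in 8.30% of all windows and in 9.55% of all genes with a window. The copies differ in the free bases and in number, as shown by the stretches of a few members that did not pass, given on the strand of each gene with the core or its reverse complement in capitals.
Bst2: GAAAATGAAACTGAAA
Gbp3: TTTCAGTTTCTATTTC
Ifit1, farther copy: TTTCACTTTC
Ifit1, nearer copy: TTTCAGTTTC
Rsad2: TTTCATTTTC
Members with the core had a median log2 difference of 0.16 (13 members, -0.11 to 0.48), those whose window lacked it 0.12 (10 members, -0.23 to 0.45), and tested members without a window 0.15 (8 members, -0.12 to 0.33). Thus Isg15 and Oas3, which rose, and Ifit1 and Rsad2, whose groups overlapped, all held the core, while Ifi44 and Irf7 rose and these letters are not in their windows. A match of letters is a description and no measure of binding.

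Ifi27l2a and Ifi44 were the members with the smallest p. Ifi27l2a, on chromosome 12 from 103442167 to 103443680 (minus strand), belongs to a family of small hydrophobic proteins strongly induced by type I interferon. It stood at 171, 166 and 167 FPKM in S37A, against 135, 126 and 138 FPKM in vector. The S37A libraries lay within 1.03-fold of each other and well above the vector libraries, and vector replicate 3 was here the highest vector library. The log2 difference was 0.33 (SE 0.04, adjusted p = 0.00484), and it passed in each of 15 alternatives, with a difference of 0.29 to 0.41 and an adjusted p of 0.00316 to 0.0297. Ifi44, a cytoplasmic protein reported in other systems to slow proliferation, on chromosome 3 from 151730922 to 151749960 (minus strand), stood at 21.7, 26.9 and 23.1 FPKM in S37A, against 19.3, 16.5 and 16.0 FPKM in vector. Its groups did not overlap (log2 difference 0.45, SE 0.09, adjusted p = 0.0174), and it passed in 12 of 15 alternatives, failing without S37A replicate 3 (adjusted p = 0.0566), vector replicate 2 (0.0537) or vector replicate 3 (0.0543).

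**Figure D3:**
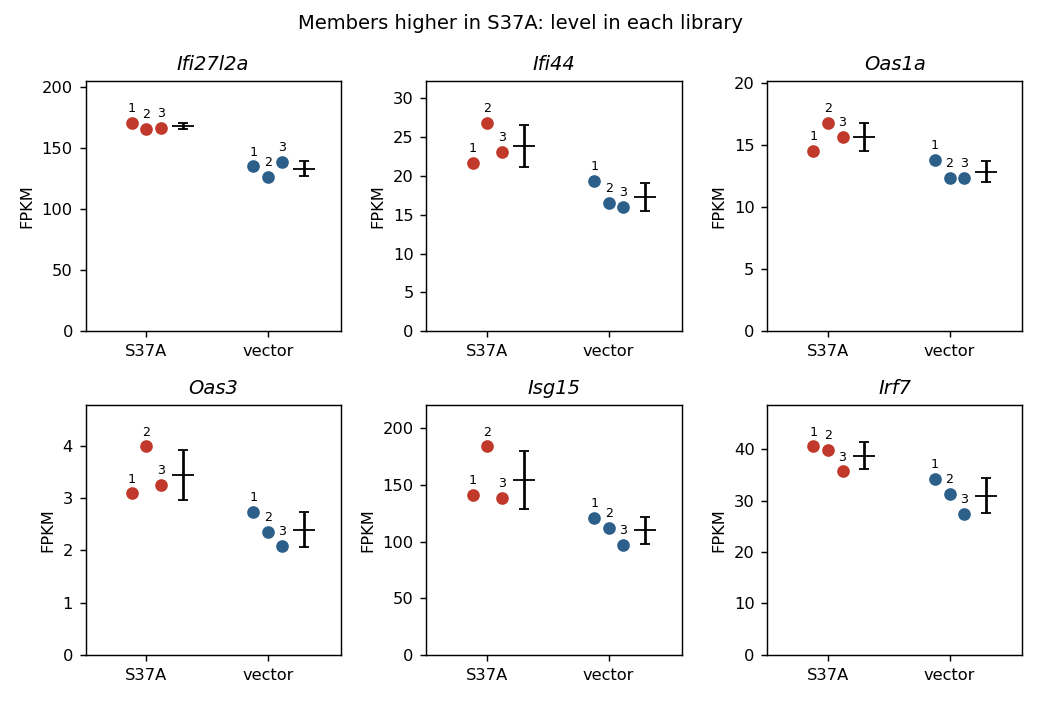
Each panel shows the FPKM, on an axis from 0, of a member that rose, with a point for each library numbered by replicate, S37A left of vector, and a black bar for the mean ± SD of 3 libraries. In all 6 panels every S37A point lies above every vector point; S37A replicate 2 stands highest for Ifi44, Oas1a, Oas3 and Isg15, and Ifi27l2a shows the narrowest S37A group.

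The Ifit genes did not pass the test. Ifit1, Ifit2 and Ifit3 encode proteins with tetratricopeptide repeats that bind viral RNA or block its translation, and they lie side by side on chromosome 19. Ifit1 stood at 19.1, 22.5 and 19.4 FPKM in S37A, against 22.3, 22.4 and 12.6 FPKM in vector (log2 difference 0.13, SE 0.20, adjusted p = 0.657). Vector replicates 1 and 2 lay within the S37A range, and vector replicate 3 far below it. Ifit3 stood at 24.6, 36.8 and 30.0 FPKM in S37A, against 38.7, 30.5 and 17.4 FPKM in vector (log2 difference 0.13, adjusted p = 0.744), and its near copy Ifit3b at 9.43, 14.8 and 11.9 FPKM in S37A, against 14.9, 13.3 and 7.03 FPKM in vector. Ifit2 averaged 9.15 ± 0.876 FPKM in S37A and 8.81 ± 1.41 FPKM in vector (adjusted p = 0.727). Without vector replicate 3 the differences of Ifit1, Ifit2 and Ifit3 were -0.13, -0.06 and -0.19, none of them called.

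Rsad2, also called viperin, an enzyme that makes a chain-terminating nucleotide, and its neighbour Cmpk2, a mitochondrial nucleotide kinase, lie next to each other on chromosome 12. Rsad2 stood at 3.32, 3.00 and 2.95 FPKM in S37A, against 4.89, 3.43 and 2.27 FPKM in vector (log2 difference -0.11, SE 0.19, adjusted p = 0.689). Cmpk2 stood at 1.36, 1.41 and 1.68 FPKM in S37A, against 2.40, 1.69 and 0.995 FPKM in vector (log2 difference -0.09, adjusted p = 0.729). For both, vector replicate 1 was the highest and vector replicate 3 the lowest of all 6 libraries, with the S37A libraries between them. Mx2, a GTPase that GENCODE M21 lists as a polymorphic pseudogene in this strain's genome, had the same order, at 1.18, 1.32 and 1.40 FPKM in S37A, against 2.05, 1.89 and 0.773 FPKM in vector (log2 difference -0.12, adjusted p = 0.650). Without vector replicate 3 its difference was -0.37 (adjusted p = 0.0279). Zbp1, a sensor of Z-form nucleic acid that can trigger cell death, stood at 5.70, 8.63 and 5.86 FPKM in S37A, against 7.75, 6.16 and 4.53 FPKM in vector (adjusted p = 0.663).

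**Figure D4:**
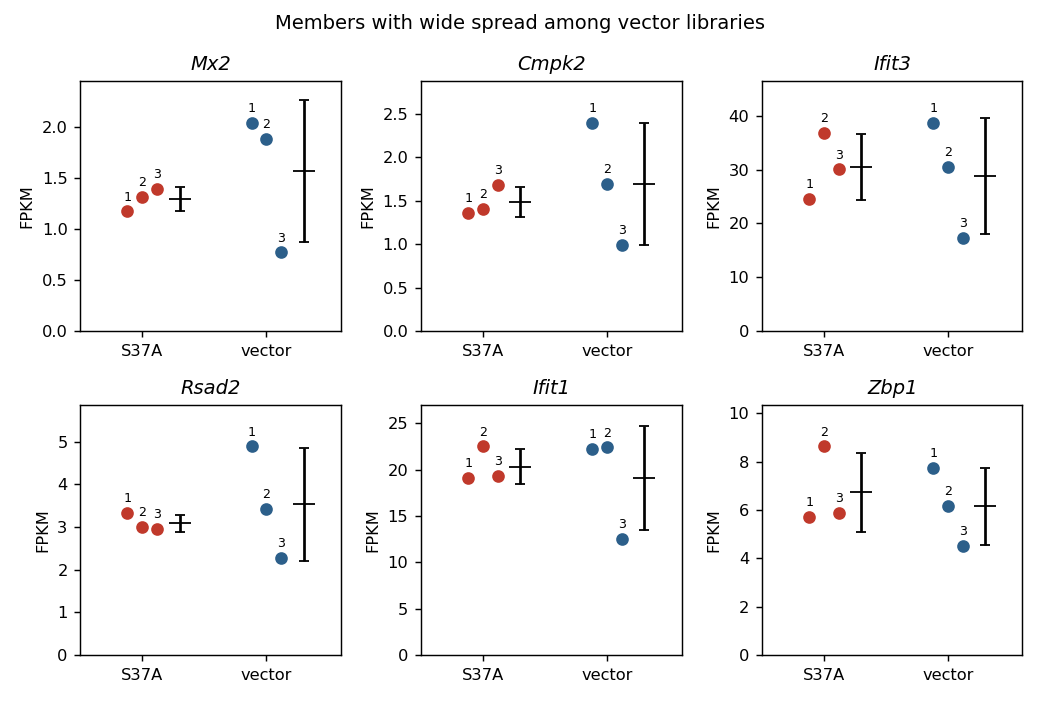
Each panel shows the FPKM, on an axis from 0, of 1 of the 6 members with the widest ratio of highest to lowest vector library, drawn as in the plot of the risen members, S37A left of vector. Vector replicate 3 is the lowest of the 6 points in every panel, and for Rsad2, Cmpk2 and Mx2 the S37A points lie between vector replicates 1 and 3.

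The RNA sensors among the members did not pass. Ddx58, which encodes RIG-I, stood at 19.7, 20.6 and 19.2 FPKM in S37A, against 19.3, 18.5 and 17.2 FPKM in vector (log2 difference 0.11, SE 0.05, adjusted p = 0.140, called at 0.0461 with median-ratio scaling). Ifih1, which encodes MDA5, stood at 6.98, 7.04 and 6.61 FPKM in S37A, against 6.68, 7.13 and 5.65 FPKM in vector (adjusted p = 0.456). Dhx58, which encodes LGP2, a regulator of both, stood at 2.03, 2.94 and 2.12 FPKM in S37A, against 1.93, 1.93 and 1.61 FPKM in vector. The groups of Dhx58 did not overlap, with S37A replicate 2 far above the rest, and it did not pass (log2 difference 0.24, SE 0.11, adjusted p = 0.123). Of these 3 sensors, 0 were called by limma, while 26.0% of all genes tested were called. An unadjusted p under 0.05 was found for 0 of the 3, and for 10.3% higher and 32.4% lower among all genes tested.

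Usp18, which removes Isg15 from proteins and blocks the interferon receptor, stood at 41.2, 45.9 and 37.7 FPKM in S37A, against 34.7, 38.7 and 26.6 FPKM in vector. The groups overlapped, since vector replicate 2 lay above S37A replicate 3 (log2 difference 0.32, SE 0.13, adjusted p = 0.106). With a block for replicate number Usp18 was called higher (adjusted p = 0.0381). Bst2 stood at 469, 467 and 442 FPKM in S37A, against 458, 388 and 394 FPKM in vector (log2 difference 0.16, SE 0.07, adjusted p = 0.115). Without vector replicate 1, whose level lay within the S37A range, Bst2 was called higher (difference 0.23, adjusted p = 0.0130). Trim30a, which in the mouse restrains inflammatory signalling, stood at 10.6, 12.0 and 10.2 FPKM in S37A, against 9.88, 8.96 and 7.13 FPKM in vector, without overlap (log2 difference 0.31, SE 0.11, adjusted p = 0.0711), and was called without vector replicate 1 (0.0332). Ifi35, a partner of Nmi in cytokine signalling, likewise did not overlap, at 33.4, 39.98 and 35.8 FPKM in S37A, against 31.2, 32.3 and 32.2 FPKM in vector (log2 difference 0.18, adjusted p = 0.0646), and was called with median-ratio scaling (adjusted p = 0.0232), with quantile normalization (0.0365) and without S37A replicate 1 (0.0362).

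The remaining members overlapped between groups. Gbp2 and Gbp3, guanylate-binding GTPases that attack the vacuoles of intracellular pathogens, averaged 17.3 ± 1.34 and 6.87 ± 1.29 FPKM in S37A and 15.1 ± 2.52 and 5.54 ± 0.766 FPKM in vector (adjusted p = 0.221 and 0.157). Xaf1, which favours apoptosis by binding XIAP, averaged 13.5 ± 0.582 FPKM in S37A and 12.0 ± 0.928 FPKM in vector (log2 difference 0.15, adjusted p = 0.0907), and was called with median-ratio scaling (0.0451) and without vector replicate 1 (0.0310). Rtp4, a receptor chaperone with antiviral action, averaged 15.2 ± 1.02 FPKM in S37A and 13.3 ± 2.29 FPKM in vector, and Parp14, a mono-ADP-ribosyltransferase, 3.75 ± 0.340 FPKM in S37A and 3.59 ± 0.480 FPKM in vector (adjusted p = 0.240 and 0.666).

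Upstream of the members, interferon genes were at or near 0. Of 9 ligand genes, 6 were listed at 0 in every library, and Ifnb1, the interferon beta of fibroblasts, was listed at 0.109, 0.0421 and 0.0390 FPKM in S37A, against 0, 0.134 and 0.0740 FPKM in vector, values below the expression filter. Interferon secreted by the cells was not measured. Of the receptors listed, Ifnlr1 was below the filter, at 0.166, 0.191 and 0.137 FPKM in S37A, against 0.314, 0.378 and 0.244 FPKM in vector. The others were well expressed. Ifnar1 averaged 9.32 ± 0.187 FPKM in S37A and 9.43 ± 0.112 FPKM in vector (adjusted p = 0.773). Ifngr1 averaged 50.1 ± 0.347 FPKM in S37A and 51.3 ± 1.48 FPKM in vector (adjusted p = 0.482). Ifngr2 and Il10rb also did not pass (adjusted p = 0.254 and 0.174). Ifnar2, the high-affinity subunit of the type I receptor, fell to 39.3, 37.6 and 36.9 FPKM in S37A, against 42.6, 46.0 and 43.0 FPKM in vector (log2 difference -0.20, SE 0.04, adjusted p = 0.0174). Median-ratio scaling ended the call of Ifnar2 (adjusted p = 0.0718), as did leaving out S37A replicate 2 or 3 (0.0613 and 0.0689).

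Among kinases and signal factors, Jak2, the kinase of the interferon gamma and many cytokine receptors, rose and Jak1, shared by all interferon receptors, fell. Jak2 stood at 13.3, 11.6 and 12.2 FPKM in S37A, against 9.35, 10.0 and 9.23 FPKM in vector (log2 difference 0.34, SE 0.06, adjusted p = 0.0102), and passed in each of the 15 alternatives. Jak1 stood at 47.0, 45.0 and 45.5 FPKM in S37A, against 52.8, 52.8 and 49.7 FPKM in vector (log2 difference -0.17, adjusted p = 0.0193), a fall that lost its call under median-ratio scaling (adjusted p = 0.120) and quantile normalization (0.0630), and without S37A replicate 2 (0.0695), S37A replicate 3 (0.0716) or vector replicate 2 (0.0528). Irf2, which opposes Irf1, and Irf2bp1, its corepressor, were called lower (log2 difference -0.22 and -0.24, adjusted p = 0.0415 and 0.0277), but neither with median-ratio scaling (0.104 and 0.0774) nor with any library left out other than vector replicate 1 (0.0678 to 0.119 for Irf2 and 0.0656 to 0.0949 for Irf2bp1). Tyk2, Stat3, Irf3, Irf5 and Irf2bp2 did not pass, with log2 differences of -0.04, -0.01, -0.08, 0.04 and 0.12.

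Of 9 tested sensors and adaptors of nucleic acid outside the members, limma called 3 adaptors that lead to interferon production lower in S37A (33.3%) and 0 higher. Among all genes tested, 19.9% were called lower and 6.06% higher. At an unadjusted p under 0.05, 4 of the 9 had a negative difference and 0 a positive one, as had 32.4% and 10.3% of all genes tested. Mavs, the mitochondrial adaptor of RIG-I and MDA5, stood at 13.4, 12.8 and 12.6 FPKM in S37A, against 15.9, 16.8 and 15.3 FPKM in vector (log2 difference -0.29, SE 0.04, adjusted p = 0.00867). Traf3, a ubiquitin ligase that carries the signal on to Tbk1, stood at 6.46, 6.29 and 6.32 FPKM in S37A, against 8.48, 8.78 and 8.20 FPKM in vector (log2 difference -0.37, SE 0.04, adjusted p = 0.00389). Both falls passed in each of the 15 alternatives. Tmem173, which encodes STING, the adaptor of cytosolic DNA sensing, was called lower (log2 difference -0.11, adjusted p = 0.0414) but not with median-ratio scaling (0.416), nor in any omission of 1 library.

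Over the whole list of 95 further pathway genes, 94 were in the data and 74 tested, of which 4 rose and 8 fell, or 5.41% and 10.8%, against 6.06% higher and 19.9% lower among all genes tested. Their median log2 difference was -0.03, against 0.15 for the members and -0.07 for all genes tested. With median-ratio scaling 6 rose and 2 fell, while 10.5% of all genes were called higher and 7.86% lower. With quantile normalization 6 rose and 3 fell, while 9.1% of all genes were called higher and 7.96% lower. Of 43 other induced genes tested, Oas1g, Igtp and Sp100 rose and Pml fell. Sp100 and Pml, both components of nuclear bodies, differed by 0.26 and -0.19 on the log2 scale (adjusted p = 0.0345 and 0.0253), the fall of Pml not being called with median-ratio scaling (0.110). Each of these 4 calls was lost in several omissions of 1 library. Igtp and Oas1g were not called without S37A replicate 2 or 3 or vector replicate 2 or 3, at adjusted p up to 0.0727 and 0.0829. Sp100 was not called without S37A replicate 1 or 2 or vector replicate 1 or 3, up to 0.103. Pml was not called without S37A replicate 2 or 3 or vector replicate 1 or 2, up to 0.0800. Of 7 negative regulators tested, among them Socs1 and Socs3, limma called 0, while 26.0% of all genes tested were called. An unadjusted p under 0.05 with a negative difference was found for 2 of the 7, and for 32.4% of all genes tested.

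**Figure D5:**
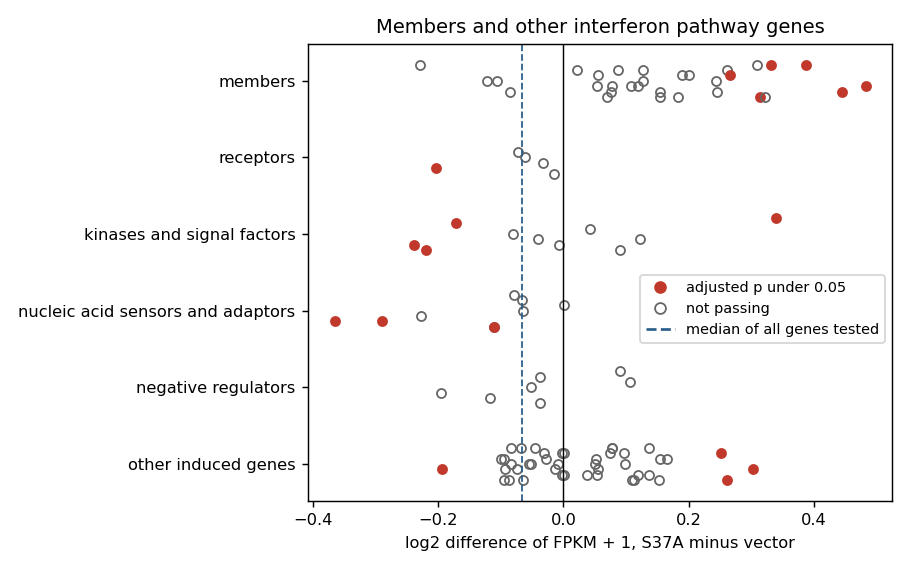
Each point is a tested gene placed by its log2 difference of FPKM + 1, S37A minus vector, in rows for the 31 members and for 74 other pathway genes by role (vertical offsets only separate points); filled red points passed at an adjusted p under 0.05, and the dashed line is the median of all genes tested, -0.07. The members lie mostly right of 0, while 30.5% of all genes tested do. All 5 receptors lie left of 0, Ifnar1, Ifngr1 and Ifngr2 being right of the dashed line. The filled points among sensors and adaptors are all left of 0.

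Macrophage markers were also higher in S37A. Macrophages also express interferon-stimulated genes, and in bulk RNA more cells of a type and more RNA per cell cannot be told apart. Of 14 macrophage markers, 10 were tested, 8 rose and 0 fell, while 6.06% of all genes tested were called higher and 19.9% lower. An unadjusted limma p under 0.05 with a positive difference was found for 9 of the 10, and for 10.3% of all genes tested. With 1 library left out, 6 to 9 of these markers rose. The count was 6 without vector replicate 3, where 3.76% of all genes were called higher, and 9 without vector replicate 1 (6.19% of all genes). The summed level of the 14 was 60.9 to 69.2 FPKM in S37A, against 23.8 to 30.2 FPKM in vector. Tyrobp, a signalling adaptor of myeloid cells, stood at 4.84, 4.52 and 4.001 FPKM in S37A, against 1.28, 0.477 and 0.584 FPKM in vector (adjusted p = 0.00260), and C1qa, a complement chain, at 2.43, 3.39 and 2.89 FPKM in S37A, against 0.766, 0.193 and 0.521 FPKM in vector (adjusted p = 0.00353). Csf1r, the receptor macrophages need to survive, averaged 0.675 ± 0.0631 FPKM in S37A and 0.497 ± 0.0741 FPKM in vector (adjusted p = 0.0883), and Ptprc, the pan-leukocyte gene, 0.138 ± 0.0152 FPKM in S37A and 0.0948 ± 0.0125 FPKM in vector. No macrophage marker was at 0 in all libraries, but those not tested, Ptprc among them, had a mean below 0.5 FPKM. The summed level of the 32 members was 1122 to 1244 FPKM in S37A, against 917 to 1096 FPKM in vector. Of this sum, Bst2, which did not pass, gave 442 to 469 FPKM in S37A and 388 to 458 FPKM in vector. The part of macrophages in the rise of the 6 members was not tested. Markers of other cells were also found. The 6 endothelial markers summed to 93.2 to 97.2 FPKM in S37A, against 97.4 to 110.5 FPKM in vector. The 8 epithelial markers summed to 10.5 to 20.5 FPKM in S37A, against 13.1 to 19.2 FPKM in vector. Of 5 markers of plasmacytoid dendritic cells, Siglech and Klk1 were listed at 0 in every library, Ccr9 and Irf8 stayed below the filter, and Cox6a2, which muscle also expresses, was at 1.76, 2.26 and 1.22 FPKM in S37A, against 1.25, 1.30 and 1.25 FPKM in vector (adjusted p = 0.160).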

How the data were processed

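RNA of 6 libraries was compared, 3 S37A and 3 vector, with groups and replicate numbers from the sample titles. Per the labels' protocols, complementary DNA was made with SMART-Seq v4, which does not mark strand, so overlapping antisense genes cannot be told apart. The tools TopHat, Cufflinks and bcl2fastq 1.8.3 and the build mm10 are named, per the submitters' processing notes. The deposited FPKM values are given, per the file headers, for 34535 transcript models with confidence bounds. The deposited coverage signal was read only to compare depth. Read counts are not used here, so depths and fragment numbers are inferred from interval widths and cover counting error only.

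FPKM was summed by symbol, leaving out 5 symbols with a status other than OK. Genes whose mean reached 0.5 FPKM were tested on log2(FPKM + 1), which understates changes of low genes, with limma 3.58.1 in R 4.3.3 (intensity trend, no block, Benjamini-Hochberg over 12022 genes, threshold 0.05). The script was tested on simulated data. The 15 alternatives changed the pseudocount, filter, scaling, trend, block, transcript model or libraries. Every member was described by role. All pathway genes that passed, and tested receptors and signal factors, were named, except 1 that is not reported here. Of the macrophage markers, Csf1r, Tyrobp, C1qa and Ptprc were named by symbol, whether or not they passed. The other marker genes, Ifnb1, Ifnlr1, Ifit3b, Socs1 and Socs3 were chosen after their values were seen. So were the Irgm, Tgtp and Ifitm genes of the closing section. Members and lists were chosen with earlier results of these data known. Positions are from GENCODE M21 and promoters from RefSeq, GRCm38.p6.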

Additional observations from a re-analysis of the deposited data

How the results depend on the processing

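Over 15 alternatives the 31 tested members gave 458 values. Of these, 405 kept their direction and side of the threshold, 26 lost a call, 10 gained one and 17 changed direction, all 17 with 1 library left out. Of the 31 members, 19 never changed direction. Over the omissions of 1 library the log2 difference ran from -0.13 to 0.26 for Ifit1, -0.059 to 0.15 for Ifit2, -0.19 to 0.37 for Ifit3, -0.32 to 0.10 for Rsad2, -0.085 to 0.11 for Oas2, -0.089 to 0.19 for Oasl1, -0.37 to 0.020 for Mx2, -0.29 to 0.098 for Cmpk2, -0.054 to 0.28 for Zbp1, -0.022 to 0.16 for Stat2, -0.0050 to 0.14 for Ifih1 and -0.023 to 0.13 for Parp14. The sign changed without vector replicate 1 for Rsad2, Mx2 and Cmpk2 and without vector replicate 3 for the other 9. Without S37A replicate 2 it also changed for Ifit3 (-0.014), Oas2 (-0.063), Oasl1 (-0.00034), Zbp1 (-0.050) and Parp14 (-0.0031). With 1 library left out, members called higher numbered 1 to 9 and lower 0 to 1, pathway genes 1 to 7 higher and 2 to 6 lower, and all genes 276 to 744 higher and 547 to 2406 lower. Without a filter, 3 members (9.38%) and 2 pathway genes were higher, as were 602 of all 19606 genes then tested (3.07%). Median-ratio scaling gave 1265 higher and 945 lower genes, 2 pathway genes among the lower, and quantile normalization 1094 and 957, 3 pathway genes among the lower. The largest transcript model gave 522 higher and 1491 lower genes, and 2 higher and 5 lower pathway genes. With the replicate block 442 genes were higher and 1193 lower, with 4 pathway genes lower and 5 members higher: 4 of the 6 remained, Oas1a and Oas3 were not called (adjusted p = 0.0676 and 0.0566), and Usp18 was (0.0381). Same-numbered libraries had deviations correlated at -0.12, 0.02 and 0.10 for numbers 1, 2 and 3, and S37A replicate 1 correlated best with vector replicate 2. With 3 libraries in a group, these correlations cannot show whether same-numbered libraries were paired. The cause of the shifts between settings was not tested. The low members Mx2 and Cmpk2 rest on 84.0 to 234 and 142 to 361 inferred fragments in a library. Ifit3, which also changed direction, rests on 1560 to 3648.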

Other observations

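Interferon-inducible GTPases of the host defence against intracellular microbes were measured beside the members. Igtp, an immunity-related GTPase also called Irgm3, stood at 9.65, 11.0 and 9.91 FPKM in S37A, against 8.67, 8.24 and 7.32 FPKM in vector (log2 difference 0.30, limma adjusted p = 0.0231). Its relatives Irgm1 and Irgm2 averaged 121 ± 6.11 and 8.95 ± 0.211 FPKM in S37A and 108 ± 9.03 and 8.33 ± 0.890 FPKM in vector, and did not pass (adjusted p = 0.0951 and 0.324). Tgtp1 and Tgtp2, T-cell specific GTPases that share sequence, had their lowest value in vector replicate 3, at 7.93 and 6.39 FPKM, and their highest in vector replicate 1, at 14.2 and 10.6 FPKM.

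The interferon-induced transmembrane proteins Ifitm3 and Ifitm2, which hinder virus entry, were among the most abundant induced genes. Ifitm3 stood at 799.6, 827 and 811 FPKM in S37A, against 800.4, 688 and 759.7 FPKM in vector (log2 difference 0.12, adjusted p = 0.147). Ifitm2 stood at 238, 251.1 and 241 FPKM in S37A, against 265, 239 and 261 FPKM in vector (log2 difference -0.06, adjusted p = 0.329), so that the groups overlapped for both.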
